A study of Mus musculus with 8 samples.

Results

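Clustered histone genes were followed on 8 two-colour arrays of mouse small intestinal organoids, in which the transcription factors Ascl2 and Tcf7l2 had been added or removed. The members were chosen by name: every non-control probe whose gene symbol on the array began with Hist1h, Hist2h, Hist3h or Hist4h. This gave 35 genes, measured by 43 probes, among 28146 gene names on the array. They were 6 linker histone (H1) genes, 12 H2A genes, 9 H2B genes, 3 H3 genes and 5 H4 genes. RefSeq placed 26 of them on chromosome 13, 5 on chromosome 3, 3 on chromosome 11 and 1 on chromosome 6. A probe was kept if 2 or more of the 8 arrays had it well above background in either colour. By this filter 33 of the 35 genes were kept, with 39 probes, beside 19141 kept genes on the whole array. Hist1h2ac and Hist1h2be did not pass and have no values below. Hist3h2bb-ps and Hist1h2al are pseudogenes by their RefSeq names, and were kept in their classes.

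Organoids are small crypt-like structures of intestinal epithelium grown from stem cells in culture. All of the cultures had a 16 h pulse of 4OH-tamoxifen, the drug that switches on the CreERT2 recombinase, which in lines named VillinCreERT2 is driven by a promoter active in intestinal epithelium. In experiment 1, organoids transduced with Ascl2, whose expression was driven by a CMV promoter after the pulse and whose RNA was taken after 24 h, were set against VillinCreERT2 organoids on 2 arrays with the dyes exchanged. In experiment 2, Tcf7l2null organoids (Tcf7l2 deleted by the pulse), Tcf7l2null organoids with Ascl2 induced, and organoids with Ascl2 induced alone were each labelled with Cy5 and set, on 1 array, against dsGFP-transduced organoids, in which the pulse induced GFP. In experiment 3, Ascl2null organoids (Ascl2 deleted by the pulse) were set against VillinCreERT2 organoids on 1 array. Experiments 2 and 3 each had 1 self-self array, with the control RNA in both colours, which shows what dye bias alone gives. For the experiment 3 self-self array the description names Ascl2loxp/loxp organoids while its genotype field names VillinCreERT2. Nothing in the labels says that the 2 replicates of experiment 1 were separate cultures, so p-values cover only how far these arrays vary, which can be technical.

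Most clustered histone genes are copied for S phase, when new DNA must be wrapped. Pairs of H2A and H2B with pairs of H3 and H4 form the core of the nucleosome, and H1 binds the linker DNA between cores. Their messengers usually end in a stem-loop bound by Slbp in place of a poly(A) tail, and are destroyed when replication stops. Some members, such as Hist1h1c and Hist1h2bc, are also known as polyadenylated forms in cells that have left the cycle. In the intestine, dividing cells lie in the crypt, and Wnt signalling through Tcf7l2 keeps them dividing. The labelling kit starts from the poly(A) tail, so the signal of a member need not follow its stem-loop messenger; the share of each form was not measured here.

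Members resemble each other so closely that the probes had to be read first. Of the 39 kept probes, 13 are listed by the array's annotation under more than 1 RefSeq gene. Between probes of different genes, 13 pairs shared an identical run of at least 20 bases, which linked 14 probes of 12 genes into 5 sets. The probes of a set may bind RNA of the same gene, so the members of a set do not count as independent measurements. The H2A sets are shown because the lowest values of the whole family lie in them. Each sequence is the probe as the deposited files hold it, 5′ to 3′ in the sense of the gene. Capitals mark bases inside the longest run that a pair of probes of the set shares. Further runs shared by the same pair are left in lower case. Positions are in mm9, as annotated for the array.
Hist1h2af (chr13:23625800-23625859, plus strand): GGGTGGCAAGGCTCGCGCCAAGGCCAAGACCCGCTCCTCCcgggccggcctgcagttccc
Hist1h2ai (chr13:21879028-21879087, minus strand): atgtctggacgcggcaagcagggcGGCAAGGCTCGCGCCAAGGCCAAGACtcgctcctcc
Hist1h2ak (chr13:21845637-21845696, minus strand): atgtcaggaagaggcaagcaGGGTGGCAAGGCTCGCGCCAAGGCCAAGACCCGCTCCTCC
Hist1h2aa (chr13:24026659-24026718, plus strand): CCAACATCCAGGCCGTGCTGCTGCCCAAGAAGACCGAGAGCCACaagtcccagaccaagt
Hist1h2af (chr13:23626108-23626167, plus strand): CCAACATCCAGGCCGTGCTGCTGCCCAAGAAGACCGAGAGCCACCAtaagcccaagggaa
Hist1h2ao (chr13:21902682-21902741, plus strand): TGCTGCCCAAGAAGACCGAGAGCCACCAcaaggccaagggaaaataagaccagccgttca
The first 3 probes share 26 to 40 bases, and those of Hist1h2ai and Hist1h2ak begin at ATG. The next 3 share 26 to 44 bases. Hist1h2af has a probe in each set.

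The H2B and H4 sets are shown because these classes went opposite ways in the comparisons below. They share 26 to 52 bases and 29 to 50 bases. The probe of Hist3h2bb-ps also shares a second run of 20 bases with Hist1h2bk and Hist1h2bm, which is in lower case in its sequence.
Hist1h2bk (chr13:22127928-22127987, plus strand): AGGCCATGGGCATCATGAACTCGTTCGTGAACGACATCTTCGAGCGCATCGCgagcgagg
Hist1h2bm (chr13:21814139-21814198, plus strand): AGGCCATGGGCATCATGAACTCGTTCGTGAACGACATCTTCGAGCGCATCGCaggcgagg
Hist3h2bb-ps (chr11:58767697-58767756, minus strand): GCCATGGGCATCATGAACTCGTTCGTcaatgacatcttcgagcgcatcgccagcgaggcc
Hist1h4d (chr13:23673665-23673724, plus strand): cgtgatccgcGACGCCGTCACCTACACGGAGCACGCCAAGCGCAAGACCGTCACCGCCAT
Hist1h4f (chr13:23643249-23643308, minus strand): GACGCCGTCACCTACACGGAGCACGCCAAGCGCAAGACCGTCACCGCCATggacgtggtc
Hist2h4 (chr3:96066953-96067012, minus strand): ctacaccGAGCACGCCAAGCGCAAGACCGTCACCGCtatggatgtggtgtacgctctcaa
In contrast, the probe of Hist1h1b, the member with the highest ratio on any array, shared no run of 20 bases with another member.
Hist1h1b (chr13:21871923-21871982, minus strand): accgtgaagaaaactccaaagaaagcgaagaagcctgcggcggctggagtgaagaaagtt
The letters of the core of the histone stem-loop, GGCTCTTTT, were found in 3 kept probes, those of Hist1h2ab, Hist1h3a and Hist1h1a. In Hist1h1a they are not followed, as in Hist1h3a, by the letters that pair with them to close the stem. That match is of letters only, and the probe of Hist1h2ab ends too soon to show the closing letters. The windows below show up to 30 bases with the core in capitals.
Hist1h2ab: aaaacaaaGGCTCTTTTca
Hist1h3a: taaccaaaGGCTCTTTTcagagccaca
Hist1h1a: gcgctgctGGCTCTTTTaagctgaacaaga

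RefSeq's promoter windows, 250 bases before to 50 after a gene's start on GRCm38, matched 29 of the 35 members. They were searched on both strands for 4 short motifs known from histone promoters, none of which contains another. CCAAT was in the windows of 27 of the 29 members (93.1%), against 41.1% of 27025 genes in the table, and TATAAA in 19 (65.5%), against 15.7%. The octamer ATTTGCAT, known from H2B promoters, was in 10 (34.5%), against 1.97% of all genes. All 10 were H2A or H2B genes, 6 of 11 and 4 of 6. The motif AAACACA, known from H1 promoters, was in 9 members (31.0%), against 8.22%. Of these, 5 were among the 6 H1 genes, and 2 each were H2A and H2B genes. Among the H4 windows, 2 of 4 held CCAAT and none held the octamer or AAACACA. These matches describe letters in a window and were not tested as binding sites.

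The H2A and H2B genes often start back to back. Within 1000 bases, 7 such divergent pairs held a member, and in 1 pair both partners were measured: Hist1h2ba on the minus strand and Hist1h2aa on the plus strand. Their starts are separated by 280 bases, shown whole because the 2 genes had opposite ratios on the arrays below. In this sequence and the next 3, all from RefSeq GRCm38.p6, capitals mark the 4 motifs on either strand.
Hist1h2ba to Hist1h2aa (chr13:23934157-23934436, plus strand): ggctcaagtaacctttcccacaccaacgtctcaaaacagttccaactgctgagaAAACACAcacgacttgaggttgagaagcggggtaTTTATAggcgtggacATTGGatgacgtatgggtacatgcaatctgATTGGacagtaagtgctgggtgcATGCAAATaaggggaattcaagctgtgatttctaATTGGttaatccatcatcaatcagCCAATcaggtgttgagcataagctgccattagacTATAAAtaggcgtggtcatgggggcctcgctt
The intervals beside Hist1h2ai and Hist1h2ao, whose other partner is H2bc13 and H2bc23, are shown because these H2A genes had among the lowest values. Neither holds the octamer or TATAAA.
H2bc13 to Hist1h2ai (chr13:21716184-21716411, plus strand): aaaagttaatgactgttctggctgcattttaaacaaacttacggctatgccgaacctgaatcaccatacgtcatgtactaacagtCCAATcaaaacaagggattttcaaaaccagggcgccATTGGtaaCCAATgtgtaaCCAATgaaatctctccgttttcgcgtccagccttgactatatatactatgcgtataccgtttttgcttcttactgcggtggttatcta
H2bc23 to Hist1h2ao (chr13:21810200-21810366, plus strand): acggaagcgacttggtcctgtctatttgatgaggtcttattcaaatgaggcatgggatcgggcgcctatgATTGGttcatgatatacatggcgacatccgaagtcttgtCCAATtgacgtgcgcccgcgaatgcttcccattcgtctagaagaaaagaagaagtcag
Upstream of Hist1h1b, AAACACA begins 117 bases and TATAAA 28 bases before the start, with CCAAT in between and further out.
Hist1h1b, upstream (chr13:21780626-21780875, minus strand): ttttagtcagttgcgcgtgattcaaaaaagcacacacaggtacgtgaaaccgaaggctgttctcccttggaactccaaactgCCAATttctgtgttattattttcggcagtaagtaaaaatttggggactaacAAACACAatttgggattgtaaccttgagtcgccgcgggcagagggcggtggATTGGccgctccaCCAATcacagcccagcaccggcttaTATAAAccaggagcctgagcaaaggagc

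The arrays had 50.1% to 61.1% of spots well above background in Cy3 and 53.8% to 67.4% in Cy5, and no spot was saturated. All 7 epithelial marker genes fixed for the check were well above background in the own RNA on all 8 arrays, while 1 of 6 mesenchymal, 1 of 5 immune and 0 of 3 endothelial markers were. Each immune marker was so on 5 to 8 arrays, and the mesenchymal Vim on 7. The check therefore does not show that other cells were absent. The Ascl2 probe was -0.31 and 0.01 on the arrays labelled Ascl2 overexpression in experiment 1, -0.68 in experiment 2 and -0.92 on Tcf7l2null with Ascl2, with -1.07 on Ascl2null. The 3 Tcf7l2 probes ran from -0.35 to -0.10 on Tcf7l2null. Which stretch of either gene was deleted or carried by a construct could not be learned from the labels, so these probes check no label, and every direction below rests on the labels. Self-self values of these 4 probes ran from -0.34 to 0.37.

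Values below are log2 ratios of the own RNA over control RNA after loess normalisation within each array, so that 1 is a doubling and 0 is the typical gene of the array. The histone genes were slightly higher than control in Tcf7l2null organoids and on replicate 1 of the experiment 1 cultures with Ascl2, and in Tcf7l2null organoids with Ascl2 the H2A and H4 genes were well below control while the H2B genes were not. The median over the 33 genes was 0.22 for experiment 1 (0.30 and 0.05 on its replicates), 0.17 for Ascl2 in experiment 2 (32 genes), 0.42 for Tcf7l2null, -0.20 for Tcf7l2null with Ascl2 and -0.04 for Ascl2null. The self-self arrays gave 0.06 and 0.04, and the median of all genes lay between 0.00 and 0.01 in all 5 conditions. As whole cultures were measured, fewer dividing cells and less histone RNA per cell cannot be told apart.

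**Figure D1:**
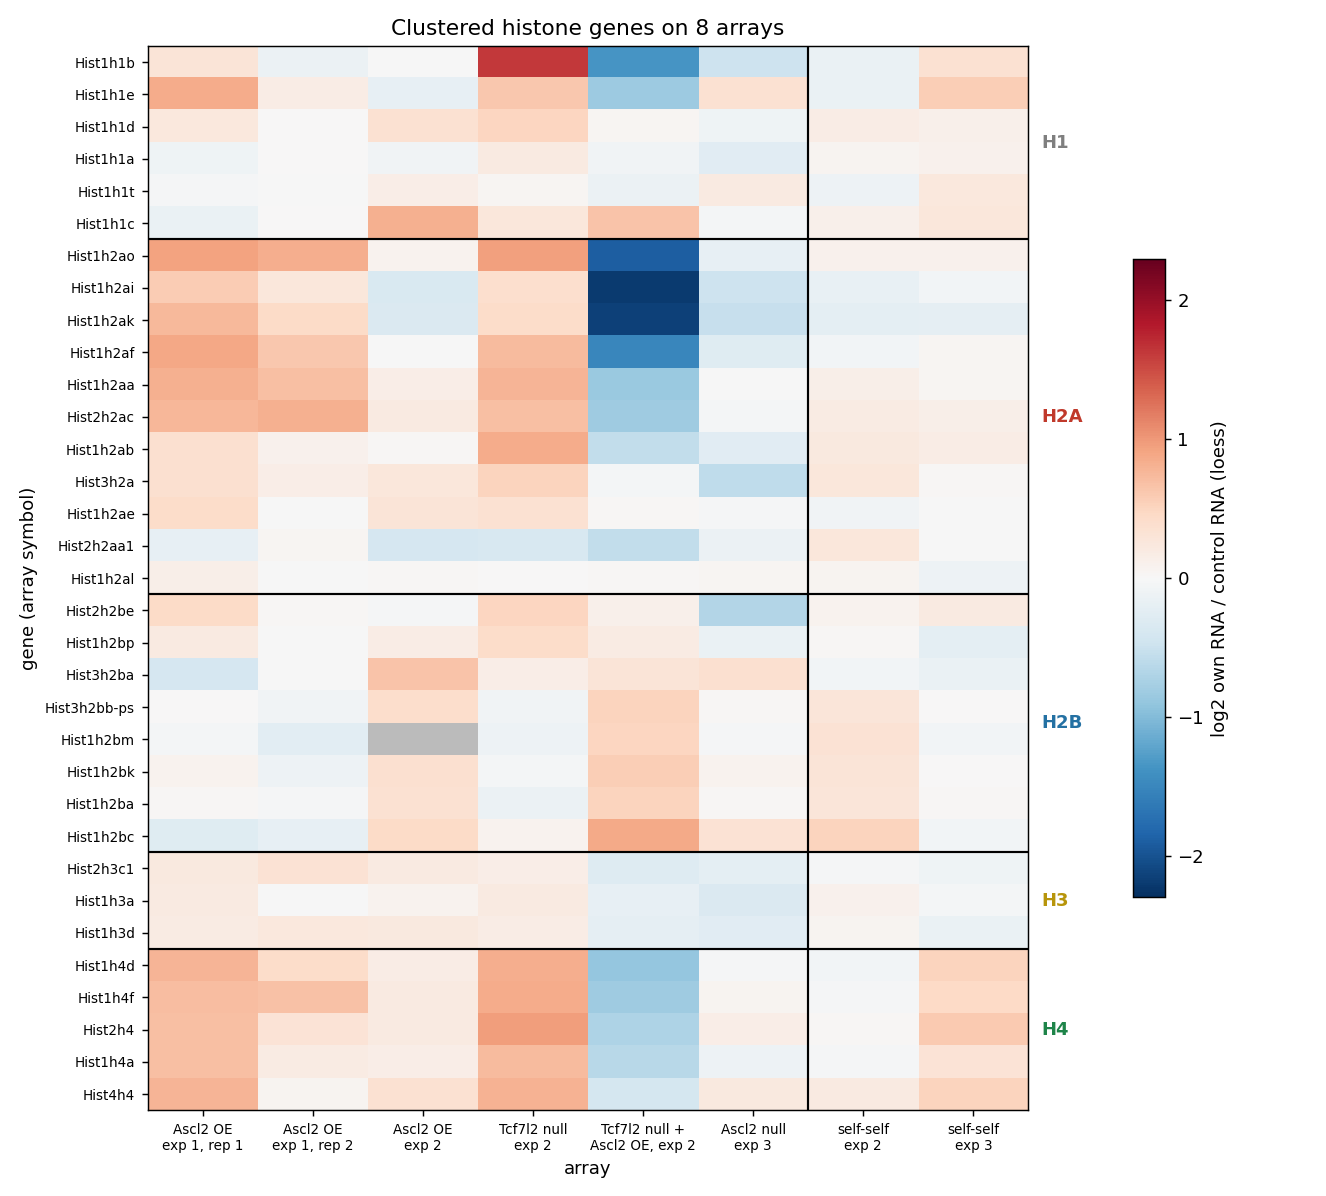
Log2 ratio of own over control RNA (colour) for 33 clustered histone genes (rows, grouped by class and ordered by the difference between the Tcf7l2null arrays) on 8 arrays (columns; OE, overexpression; the last 2 are self-self arrays; grey, spot left out). The deepest blue is Hist1h2ai at -2.21 in Tcf7l2null organoids with Ascl2, and the deepest red Hist1h1b at 1.62 in Tcf7l2null organoids.

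In Tcf7l2null organoids, H4 and H2A genes stood highest above control. All 5 H4 genes were between 0.72 and 0.97, with a median of 0.84. The 11 H2A genes had a median of 0.51 and 10 of them were above 0, from 0.01 for the pseudogene Hist1h2al to 0.94 for Hist1h2ao. The exception was Hist2h2aa1 at -0.37. The 8 H2B genes had a median of 0.01, or -0.35 after the self-self array of the experiment was subtracted. The 3 H3 genes had a median of 0.18. Median centring in place of loess gave 0.31 for H2B, 0.63 for H3, 0.87 for H2A and 1.17 for H4. Of all members only Hist1h1b, a linker histone of dividing cells, reached 2-fold, and 0 were 2-fold lower. Across all genes of this array 0.355% reached 2-fold above control and 0.491% reached 2-fold below. With each array centred on its median in place of loess, 11 members were at least 2-fold higher, and with the scanner software's own ratio 5. The share of all genes at 2-fold was not computed under these settings. There was 1 array, so nothing was tested.

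Hist1h1b had the widest range of all members. It was 0.30 and -0.13 on the replicates of experiment 1, -0.02 with Ascl2 in experiment 2, 1.62 in Tcf7l2null, -1.35 in Tcf7l2null with Ascl2 and -0.48 in Ascl2null, with -0.15 and 0.35 on the self-self arrays. The Tcf7l2null value is far above, and the value with Ascl2 added far below, every other array. Hist1h1e, the second linker histone in that order, was 0.62 in Tcf7l2null and -0.83 with Ascl2 added, and 0.85 and 0.18 on the replicates of experiment 1. On its self-self arrays it was -0.16 and 0.56. The other linker histones were nearer to 0 on these 2 arrays. Hist1h1a was 0.20 and -0.08, Hist1h1d 0.49 and 0.04, and Hist1h1c 0.26 and 0.65. The 0.04 of Hist1h1d averages 2 probes at -0.33 and 0.41. The testis linker histone Hist1h1t had 0.04 and -0.13, but was not well above background in either colour of these arrays.

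When Ascl2 was induced on top of the Tcf7l2 deletion, 5 of 33 members were at least 2-fold below control: Hist1h1b and the H2A genes Hist1h2ai (-2.21), Hist1h2ak (-2.14), Hist1h2ao (-1.90) and Hist1h2af (-1.50). None was 2-fold higher. Over all genes of this array 1.85% were at least 2-fold lower and 1.09% higher. With median centring in place of loess the class medians of this array were -0.41 for H2A, -0.53 for H4 and 0.90 for H2B. With loess the H2A genes had a median of -0.81, with 9 of 11 below 0, and the H4 genes one of -0.71, with 5 of 5 below 0, from -0.89 for Hist1h4d to -0.41 for Hist4h4. All 3 H3 genes were between -0.30 and -0.19, but their median of -0.20 turned to 0.31 when arrays were centred on their median in place of loess. The 8 H2B genes were all above control, from 0.11 for Hist2h2be to 0.86 for Hist1h2bc, with a median of 0.50. The experiment 2 self-self array gave an H2B median of 0.28 and 7 of 8 were above 0. After that array's ratios were subtracted, gene by gene, the H2B median was 0.24 with 8 of 8 above 0, the H2A median -0.99 and the H4 median -0.73. The low H2A genes share probe sequence as shown above, and averaging all genes whose probes share a run left 2 of 24 values at least 2-fold lower.

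**Figure D2:**
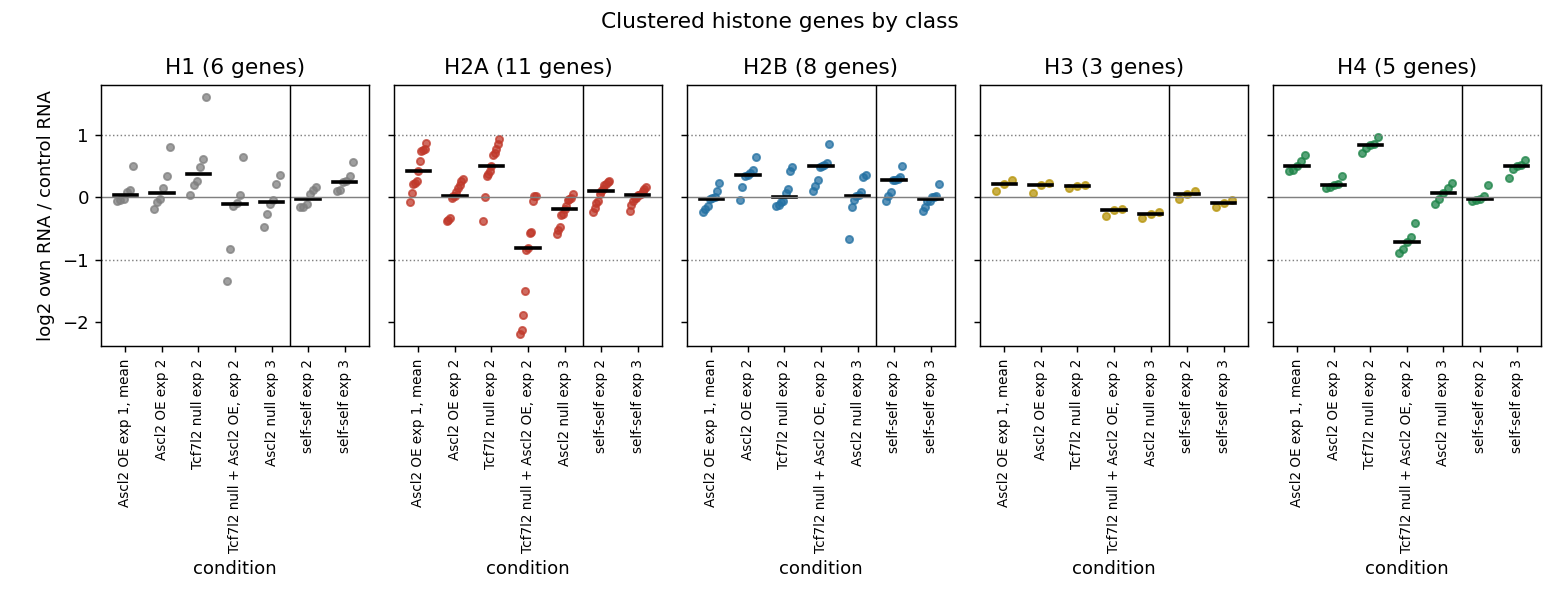
Log2 ratio of own over control RNA (vertical axis) by class for the mean of experiment 1, 4 single arrays and, right of the line, both self-self arrays; each point is 1 gene, black bars are medians and dotted lines mark 2-fold. In Tcf7l2null organoids with Ascl2 the H2A and H4 medians are -0.81 and -0.71 and the H2B median is 0.50.

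The 2 arrays share the dsGFP control and the dye orientation, so that both cancel in their difference, Tcf7l2null with Ascl2 minus Tcf7l2null. In this difference 14 of 33 members were at least 2-fold lower and 0 at least 2-fold higher, beside 3.9% and 2.49% of all genes. The 14 were 7 of 11 H2A genes, 5 of 5 H4 genes, and the linker histones Hist1h1b and Hist1h1e. Class medians were -1.68 for H4, -1.50 for H2A, -0.39 for H3, -0.37 for H1 and 0.60 for H2B. Averaging genes whose probes share a run left 7 of 24 values at least 2-fold lower. The median over all 33 members was -0.46, and it was -1.22 over the 27 that were well above background in both colours of both arrays. No array was repeated, so this difference has no test.

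Hist1h1b led the difference at -2.97. Hist1h2ao followed at -2.84. It was 0.93 and 0.83 in experiment 1, 0.08 with Ascl2 in experiment 2, 0.94 in Tcf7l2null, -1.90 with Ascl2 added and -0.19 in Ascl2null, and 0.10 on each self-self array. Hist1h2ai differed by -2.59, Hist1h2ak by -2.57 and Hist1h2af by -2.23. These 4 genes encode core H2A proteins of the large cluster. On the other arrays of experiment 2 their values were small, from -0.36 to 0.08 with Ascl2 alone and from -0.23 to 0.10 on the self-self array. Outside the shared probe sets, Hist1h2ab, whose probe lies at the stem-loop, differed by -1.42. Hist2h2ac, whose own 2 probes overlap, differed by -1.50. The array's annotation also lists a probe of Hist2h2ac under H2ac19 and H2ac18, the current symbol of Hist2h2aa1. Hist2h2aa1 differed by -0.20 at its own probe. The -1.50 may therefore not be of Hist2h2ac alone.

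Among the H4 genes, which code for the same core protein from several loci, the difference ran from -1.73 for Hist1h4d to -1.22 for Hist4h4. Hist1h4f was 0.70 and 0.67 in experiment 1, 0.21 with Ascl2 in experiment 2, 0.86 in Tcf7l2null, -0.82 with Ascl2 added and 0.07 in Ascl2null, with -0.03 and 0.47 on the self-self arrays. Hist4h4, the H4 gene on chromosome 6, has a probe that shared no run with the others and differed by -1.22. The H4 values of Tcf7l2null and of Tcf7l2null with Ascl2 did not overlap, but each condition is 1 array and the genes are not replicates of it. The probes of Hist1h4a, Hist1h4d, Hist1h4f and Hist2h4 are linked by shared runs. The 16 mitosis genes listed below did not overlap either, with 0.24 the lowest in Tcf7l2null and -0.44 the highest with Ascl2 added.

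In the 1 divergent pair with both partners measured, the H2A and H2B genes had opposite signs. Hist1h2aa was 0.78 in Tcf7l2null and -0.85 with Ascl2 added, and its divergent partner Hist1h2ba, a testis form of H2B, was -0.13 and 0.52. Their differences were -1.62 and 0.65. The probe of Hist1h2aa shares 44 bases with a probe of Hist1h2af and 26 with that of Hist1h2ao. Its values may therefore hold RNA of those genes, and whether Hist1h2aa itself changed was not tested. Hist1h2bc had the highest H2B difference at 0.79. It was -0.28 and -0.19 in experiment 1, 0.45 with Ascl2 in experiment 2, 0.08 in Tcf7l2null, 0.86 with Ascl2 added and 0.34 in Ascl2null, but 0.51 on the experiment 2 self-self array. The 3 H2B genes of the shared probe set and Hist1h2ba had differences between 0.59 and 0.65. Hist2h2be and Hist1h2bp lay below 0, at -0.38 and -0.23, and Hist3h2ba at 0.15. The last of these was not well above background in either colour on Tcf7l2null, and Hist1h2bp was not so in the control colour of the experiment 2 arrays.

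**Figure D3:**
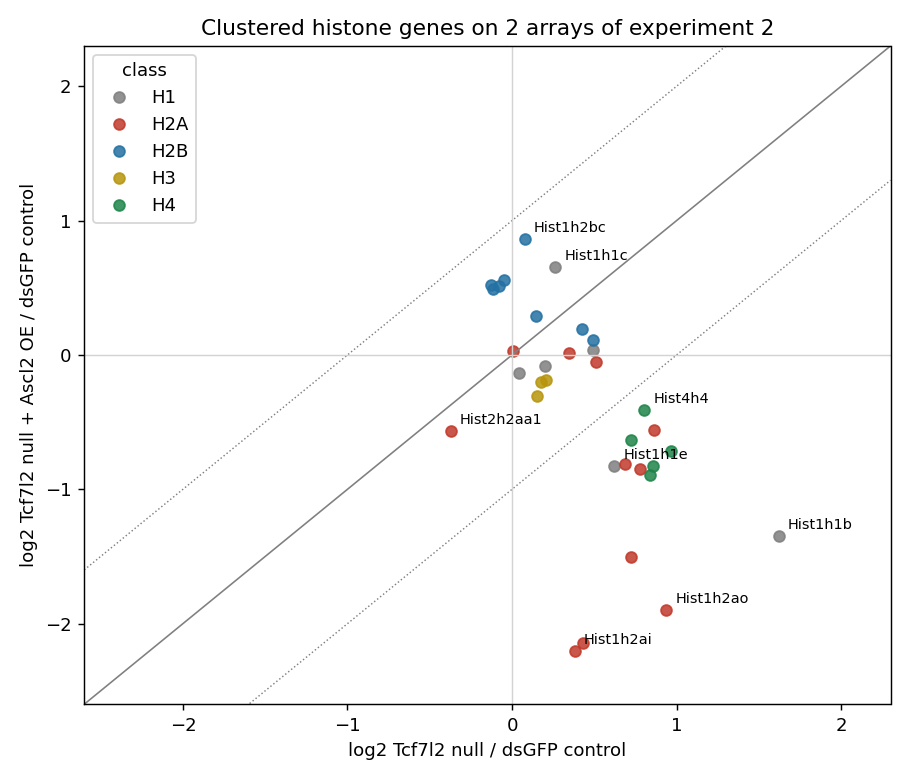
Log2 ratio to the shared dsGFP control in Tcf7l2null organoids (horizontal axis) and in Tcf7l2null organoids with Ascl2 (vertical axis); each point is 1 of 33 clustered histone genes coloured by class, the solid line marks equal values and dotted lines mark 2-fold. The 5 H4 genes and 7 H2A genes lie below the lower dotted line, and the H2B genes all lie above 0 on the vertical axis.

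The position of the octamer could be set beside these values. Among H2A genes with a promoter window, the 5 measured ones without it (Hist1h2af, Hist1h2ai, Hist1h2ak, Hist1h2ao and Hist2h2aa1) had ratios from -2.21 to -0.57 in Tcf7l2null with Ascl2, and the 5 with it from -0.85 to 0.02. Their ranges in the difference overlapped, -2.84 to -0.20 and -1.62 to -0.33. Hist1h2ae, which gives both the 0.02 and the -0.33, was not well above background in either colour on the array of Tcf7l2null with Ascl2. The comparison was chosen after the values were seen, and 4 of the 5 genes without the octamer lie in the shared probe sets.

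Where 2 probes of a gene lie apart, they did not always give the same value. Hist1h2af was -2.12 and -0.89 at its 2 probes in Tcf7l2null with Ascl2, the first of them in the set with Hist1h2ai and the second in the set with Hist1h2aa. The probes of Hist1h1d start 1751 bases apart and gave -0.33 and 0.41 there. Those of Hist3h2a, 567 bases apart, gave -0.40 and 0.30 on that array and -1.09 and -0.08 in Ascl2null. RefSeq gives Hist1h1d a span of 776 bases and Hist3h2a one of 508, so a probe of each lies outside the annotated gene. Hist1h4d, Hist1h2bk and Hist2h2ac had probes within 0.24 of each other on both Tcf7l2null arrays.

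Ascl2 overexpression alone was measured on 3 arrays, and H2A and H4 genes were the highest classes in experiment 1. In experiment 2 the H2B genes had the highest median before the self-self array was subtracted, and the H4 genes after it. In experiment 1 the H2A median was 0.59 on replicate 1 and 0.27 on replicate 2, and the H4 median 0.70 and 0.32. All 5 H4 genes and 8 of 11 H2A genes were above 0 on both replicates. The H2B medians were 0.02 and -0.05. In experiment 2 the H2A median was 0.03, the H4 median 0.21 and the H2B median 0.36, and after subtraction of the self-self array these were -0.02, 0.19 and 0.07. With the dye term of the fit removed instead, the H4 median there was -0.04. No member reached 2-fold in either experiment, beside 0.162% of all genes in experiment 1 and 1.64% in experiment 2.

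With limma over the 8 arrays, 0 of the 33 members passed for an Ascl2 effect shared by the 3 arrays, and 0% of the 19141 genes did. At an unadjusted p under 0.05 there were 11 members, all higher, beside 2.83% of all genes that were higher at that threshold (1232 genes in both directions). They were the H2A genes Hist2h2ac, Hist1h2aa, Hist1h2ao, Hist1h2af and Hist3h2a, the H4 genes Hist1h4f, Hist4h4, Hist1h4d and Hist1h4a, and the H3 genes Hist2h3c1 and Hist1h3d. Hist2h3c1 had the smallest p among members: it was 0.23, 0.33 and 0.21 on the 3 arrays and -0.02 and -0.10 on the self-self arrays, an effect of 0.27 ± 0.07 (SE, n = 3) with an adjusted p of 0.338. Hist2h2ac was 0.76, 0.81 and 0.20, an effect of 0.60 ± 0.14 (SE, n = 3) with an adjusted p of 0.343. Hist1h2aa had 0.56 ± 0.14 (adjusted p = 0.362), Hist1h2ao 0.63 ± 0.17 (adjusted p = 0.429) and Hist1h4f 0.52 ± 0.16 (adjusted p = 0.52). The effect of Hist1h2bm rests on experiment 1, since its spot was left out as an outlier on the experiment 2 array. Centring each array on its median in place of loess left 0 members at an unadjusted p under 0.05 and turned Hist2h3c1 to -0.07. Without replicate 2 of experiment 1 there was 1 such member, without replicate 1 there were 6, and without the experiment 2 array 16. Of all 19141 genes, 648, 1377 and 1390 were under that p in these settings, in that order and in both directions.

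The Ascl2 effect of experiment 2, which is 1 array, was also set against that of experiment 1. This limma difference, experiment 2 minus experiment 1, passed for 90 of 19120 genes (0.471%), and for 0 when arrays were centred on their median in place of loess. None of the 32 members that could be fitted passed. At an unadjusted p under 0.05 there were 10, 8 of them lower and 2 higher in experiment 2, beside 3.77% of all genes lower and 3.93% higher. Hist3h2ba was -0.38 and 0.00 in experiment 1 and 0.65 in experiment 2, a difference of 0.99 ± 0.18 (SE) with an adjusted p of 0.117. Its control signal was not well above background on the experiment 2 array, so this ratio has no firm denominator. Hist1h1c was -0.14 and 0.02 against 0.82, a difference of 0.83 ± 0.23 with an adjusted p of 0.333. On the other side, Hist1h2ao differed by -0.87 ± 0.17 (adjusted p = 0.145), Hist1h2af by -0.83 ± 0.19 (adjusted p = 0.216) and Hist1h2aa by -0.68 ± 0.17 (adjusted p = 0.293). This test sets 1 array against the spread of the dye exchange and the self-self arrays.

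In Ascl2null organoids no member reached 2-fold, beside 3.46% of all genes. The lowest members were the polyadenylated-form gene Hist2h2be at -0.68, Hist3h2a at -0.58, Hist1h2ak at -0.52, Hist1h1b at -0.48 and Hist1h2ai at -0.47. The highest were Hist3h2ba at 0.37, Hist1h1e at 0.36 and Hist1h2bc at 0.34. The value of Hist3h2a averages 2 probes at -1.09 and -0.08. All 3 H3 genes were below 0, from -0.34 to -0.23. All 3 were also below 0 on the experiment 3 self-self array, with a median of -0.10. Less that array the H3 median was -0.14. Hist1h3a, at -0.34, was not well above background in the own colour on the Ascl2null array. The H4 median was 0.07, but the experiment 3 self-self array had an H4 median of 0.51, and less that array the H4 median was -0.42, with 5 of 5 genes below 0. Treated in the same way the H1 median was -0.26, with 6 of 6 genes below 0, the H2A median -0.30 and the H2B median 0.05. This is 1 array with no test.

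Members known to have polyadenylated forms in differentiated cells differed among themselves. In Tcf7l2null with Ascl2 they ran from Hist2h2aa1 at -0.57 and Hist4h4 at -0.41 to Hist2h2be at 0.11, Hist1h1c at 0.65 and Hist1h2bc at 0.86, with a median of 0.11 beside -0.20 for all members. In Ascl2 overexpression of experiment 2, Hist1h1c, a linker histone known to gather in resting cells, was 0.82, the highest of all members there, with 0.11 on the self-self array. In the same place Hist2h2aa1 was -0.38, the lowest.

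Genes that make, carry and use histones were set beside the members from lists fixed for this purpose. In Tcf7l2null with Ascl2, 28 of 29 measured S phase and replication genes were below control and 19 were at least 2-fold lower, with a median of -1.26. The lowest were the helicase subunit Mcm7 (-2.45) and the DNA methylation factor Uhrf1 (-2.06), and the replication clamp Pcna was near control (-0.01). In Tcf7l2null all 30 were above control, with a median of 0.45 and none at 2-fold. Of 16 mitosis genes, 16 were below control with Ascl2 added (median -1.01) and 16 above without it (median 0.52). Among 17 histone chaperones, all were below control with Ascl2 added (median -0.69). The lowest were Chaf1b (-1.98) and Asf1b (-1.69), and the highest was Asf1a (-0.04). Hira was -0.15, Rbbp4 -0.30 and Hjurp -0.69. Whether chaperones that act during replication differ from the rest was not tested. The 10 measured replacement and variant histones had a median of -0.32. H2afx (-1.62), Cenpa (-0.93) and H2afz (-0.82) were low, and H2afv (0.44) was the highest. H2afx was also -0.64 on the self-self array of experiment 2. The 17 genes of histone messenger synthesis and 3′ processing had a median of -0.33 with none at 2-fold. Slbp, the stem-loop binding protein, was 0.39 in Tcf7l2null and -0.38 with Ascl2 added, and Lsm10, of the processing particle, was 0.32 with Ascl2 added. By limma, 0 genes of these lists passed for Ascl2 overexpression over 3 arrays or for the difference between experiments.

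**Figure D4:**
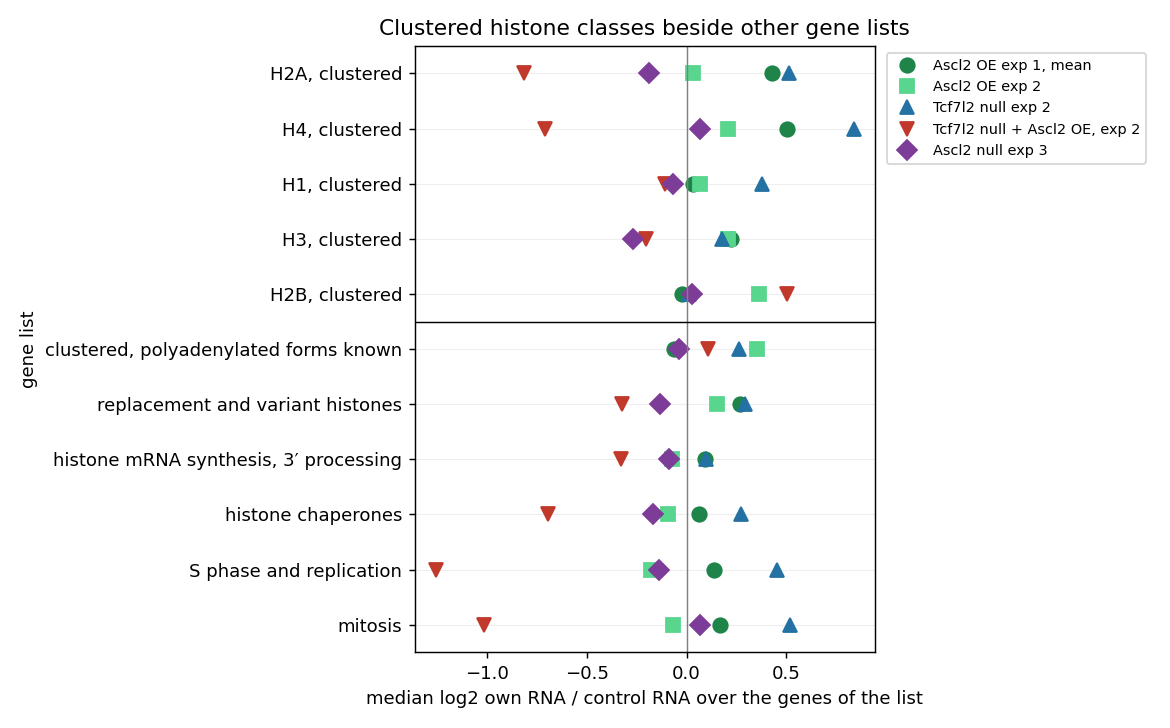
Median log2 ratio of own over control RNA (horizontal axis) of the 5 classes of clustered histone genes (above the line) and of 6 comparison lists (below it; the first of them holds members) in 5 conditions (symbols; OE, overexpression; 1 array each but for experiment 1). In Tcf7l2null organoids with Ascl2 the H2A and H4 medians lie near those of chaperones (-0.69) and short of S phase genes (-1.26), and the H2B median is on the other side of 0.

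The order differed with Ascl2 alone in experiment 2, where 26 of 30 S phase genes were below control with a median of -0.18, while the H4 median was 0.21. Markers of cell types differed on the same arrays. In Tcf7l2null with Ascl2, the 8 crypt base stem cell markers had a median of -1.24 (range -4.83 to -0.33), the 4 measured Paneth markers one of -1.90 (-2.80 to -1.64) and the 6 enteroendocrine markers one of 3.64 (-1.08 to 4.95). With Ascl2 alone in experiment 2 these medians were -0.82, -1.80 and 3.04. In the limma difference between the experiments, 4 of 6 enteroendocrine markers passed as higher in experiment 2, and 2 Paneth markers and 1 stem cell marker as lower, calls that median centring, with 0 genes passing, does not keep. In Ascl2null the enteroendocrine median was 4.10 and the stem cell median -0.70. In Tcf7l2null the stem cell median was 0.50 and the enterocyte median -0.67, with 6 of 6 measured enterocyte markers below 0. In experiment 1 the enterocyte median was -0.43, with 7 of 7 below 0, and the stem cell median 0.41. The part of such shifts in the histone values was not tested.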

How the data were processed

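RNA of 8 samples of mouse small intestinal organoids was measured on 8 two-colour Agilent arrays, 1 per sample. The deposited scanner files hold spot intensity in both colours and a log10 ratio of Cy5 over Cy3, made by the authors with Agilent Feature Extraction 10.5.1.1, per the file headers. A deposited table holds the authors' processed log2 ratios. Its direction was found by setting it against the scanner ratio, with r = 0.86 and -0.85 on the dye-exchanged arrays of experiment 1 and 1.00 on the others. How it was normalised is not given in these sources.

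From the median spot signals, control and outlier spots were left out, background was corrected with limma 3.58.1 in R 4.3.3 (normexp, offset 50), and loess was run within each array. Median signals were used because not all files hold the mean spot signal that had been planned. Ratios were turned so that own RNA stands over control. Probes not well above background in a colour on at least 2 of 8 arrays were dropped, probes of a gene were averaged, and limma was fitted over all 8 arrays with a dye term, 1 effect per condition, and Benjamini-Hochberg adjustment over all genes at 0.05. It left 3 residual degrees of freedom for the shared Ascl2 effect and 2 for the effect per experiment. The scripts were tested on simulated data. The number of arrays limits the precision, since each condition but Ascl2 overexpression rests on 1 array.

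The members and comparison lists were chosen with earlier results of these data known. Genes were named by rule: per condition and for the Tcf7l2null difference the 5 highest and 5 lowest members, all H1 genes, the 3 highest and 3 lowest by mean in each other class, the polyadenylated list, the 5 smallest limma p-values, the 2 highest and 2 lowest of each comparison list, and Ascl2 and Tcf7l2. Other genes that are named, such as Slbp, Hira, Cenpa and H2afz, were added for their known role. Symbols were matched to RefSeq (GRCm38) by accession for 32 members and by synonym for 3. Alternatives were no background correction, median centring, the scanner's ratio, the authors' table, other probe filters, the brightest probe, the dye term in other forms, and each of the 5 Ascl2 overexpression and self-self arrays left out.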

Additional observations from a re-analysis of the deposited data

Results flagged for a closer look

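Ascl2 was induced both with and without the Tcf7l2 deletion in experiment 2. For 9 of the 14 members that were at least 2-fold lower with Ascl2 in Tcf7l2null organoids, the Ascl2 value without the deletion had the opposite sign. How often this held among all genes at 2-fold was not counted. The 9 of 14 is therefore not shown to be particular to histone genes. There is 1 array on each side, so the difference between both Ascl2 effects was not tested, and both effects use the same dsGFP control RNA. Without the deletion these 9 genes ran from 0.02 to 0.35, and on the self-self arrays from -0.06 to 0.61. The effect in Tcf7l2null compares arrays of 1 dye orientation, while the value without the deletion keeps any dye effect. After the fitted dye term was removed, 4 of the 9 stayed above 0 (-0.14 to 0.13), and after the experiment 2 self-self array was subtracted, 7 did (-0.20 to 0.24), both chosen after the data were seen.

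Among H2A genes, the effect of Ascl2 in Tcf7l2null organoids minus that without the deletion was -2.92 for Hist1h2ao (-2.84 against 0.08). It was -1.78 for Hist1h2aa (-1.62 against 0.16), -1.70 for Hist2h2ac (-1.50 against 0.20) and -1.44 for Hist1h2ab (-1.42 against 0.02). Among H4 genes it was -1.90 for Hist1h4d (-1.73 against 0.17), -1.89 for Hist1h4f (-1.68 against 0.21) and -1.89 for Hist2h4 (-1.68 against 0.21). It was -1.57 for Hist4h4 (-1.22 against 0.35) and -1.51 for Hist1h4a (-1.36 against 0.16).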

How the results depend on the processing

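The median of the members in Tcf7l2null organoids (0.42) was 0.63 with median centring, 0.65 with the scanner's ratio and 0.66 in the authors' deposited table. With Ascl2 added it was -0.20, -0.42 in the authors' deposited table and -0.56 over the 27 genes well above background on all arrays, the same as without genes dim in either array. For the difference it was -0.46, then -1.16 in the authors' deposited table and -1.22 over these 27. In Ascl2null the median was -0.04, and -0.22 with median centring. The H3 median with Ascl2 in Tcf7l2null turned from -0.20 to 0.31, and the limma effect of Hist2h3c1 from 0.27 to -0.072, both with median centring; the cause was not tested.

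Members at least 2-fold higher in Tcf7l2null numbered 1, and 11 with median centring, 5 with the scanner's ratio and 4 in the authors' deposited table. Where the main count of higher members was 0, the scanner's ratio gave 3 and the authors' values gave 3 for Ascl2 in experiment 2, and each gave 1 with Ascl2 in Tcf7l2null and 1 in Ascl2null, where each also gave 1 lower. Median centring gave 1 higher with Ascl2 in Tcf7l2null, the authors' values gave 1 in experiment 1, and the scanner's ratio 1 in the difference. For these settings the share of all genes at 2-fold was not computed. Averaging genes whose probes share a run, chosen after the data were seen like the settings without dim genes and without pseudogenes, left 2 lower with Ascl2 in Tcf7l2null (5 before) and 7 in the difference (14 before). The experiment 1 median lay between 0.05 and 0.30 when either replicate was left out. No member passed the limma test for Ascl2 under any setting, the count being 0 to 0 with each Ascl2 overexpression or self-self array left out. Genes of all kinds that passed numbered 18 without background correction, 11 without the dye term and 1 without a filter. With the experiment as a random block they numbered 217, and the smallest adjusted p of a member by limma was 0.064. For the difference between experiments, 145 genes passed in the authors' table and 0 with median centring, which moved the median of all genes to -0.27. With a dye term per experiment that difference could not be fitted and was not run. Of 240 class medians under alternatives, 182 moved by no more than the SD between the 2 replicates of experiment 1, as did 262 of 355 single-gene values. That SD was used for every condition, since conditions with 1 array have no spread of their own. No paired analysis was possible because only 1 group has replicate numbers. Single arrays limit every comparison but Ascl2 overexpression.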
